A study of Mus musculus with 2 samples.

Results

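MicroRNAs (miRNAs) that mark the nephron and the non-epithelial lineages were examined in mouse ureteric bud cells. The question was how much signal their probes gave in the sorted population. Bulk RNA cannot tell cells of other lineages from ureteric bud cells that express such a miRNA themselves. The members were all 76 miRNA probes, of 1040 on the array, whose miRNA number belongs to 31 numbers assigned to 7 lineages, with every letter and both arms included. They comprised 11 probes for the nephron, 9 for stroma and smooth muscle, 2 for endothelium, 9 for blood, 17 for striated muscle, 20 for nervous tissue, and 8 for liver and pancreas. Of the 76 target sequences, 57 were identical to a mature mouse miRNA in the RefSeq table used here.

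The cells came from E15.5 kidneys of Rosa26YFP; Hoxb7Cre embryos, in which a Cre driven by Hoxb7, a gene of the ureteric bud and its duct derivatives, switches on a yellow fluorescent protein from the Rosa26 locus. Kidneys were dissociated with trypsin and the fluorescent cells were sorted. The design has a single group of 2 samples, replicate 1 stained with Cy3 and replicate 2 with Cy5. Nothing outside this group was compared. Sample and dye therefore cannot be told apart, and the labels name no separate litters or sorts, so the difference between the samples may be technical. In such bulk RNA, fewer cells of a lineage and less miRNA per cell cannot be told apart either.

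A miRNA is cut from a hairpin precursor, and 1 or both arms of the hairpin can be loaded into the silencing complex. Bases 2 to 8 of the loaded arm, the seed, pair with target messenger RNAs. Many miRNAs accumulate in particular lineages. miR-192, miR-194 and miR-215 are abundant in kidney and gut epithelium, and miR-143 and miR-145 in smooth muscle. miR-126 is abundant in endothelium, miR-451 and miR-144 in red cells, and miR-1, miR-133 and miR-206 in striated muscle. miR-124 is abundant in neurons, miR-9 in neural progenitors, miR-122 in hepatocytes, and miR-216 and miR-217 in the exocrine pancreas.

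The mature sequences on which the account below turns are shown with the seed in capitals, as RefSeq gives them for the GRCm38.p6 assembly. The nephron set holds 2 pairs that share a seed, miR-192 with miR-215 and miR-204 with miR-211.
miR-192: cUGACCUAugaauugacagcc
miR-215: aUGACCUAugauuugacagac
miR-204: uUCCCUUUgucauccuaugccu
miR-211: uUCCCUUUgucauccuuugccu
miR-194 is encoded beside miR-192 and again beside miR-215, and has another seed.
miR-194: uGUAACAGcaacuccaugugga
The stromal miR-214 and the neural miR-128 were the members nearest to detection in both samples, and miR-133b* was the brightest member in 1 sample. miR-133b is its opposite arm.
miR-214: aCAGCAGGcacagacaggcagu
miR-128: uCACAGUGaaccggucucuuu
miR-133b*: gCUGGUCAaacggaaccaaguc
miR-133b: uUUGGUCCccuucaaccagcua
miR-132 and miR-212 are neighbours in the genome that share a seed.
miR-132: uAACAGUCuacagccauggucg
miR-212-3p: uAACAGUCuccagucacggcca
The defining miRNAs of endothelium, red cells and myeloid cells have unrelated seeds.
miR-126-3p: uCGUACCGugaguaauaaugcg
miR-451: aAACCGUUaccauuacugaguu
miR-223: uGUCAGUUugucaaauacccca

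Each probe was printed as 3 repeat spots, and its level on an array is the median raw intensity of these, in scanner units. A spot passed when it exceeded the array's blank spots by 3 SD above their mean, which came to 303.2 units in replicate 1 and 81.1 in replicate 2, and a probe was detected when 50% or more of its spots passed. Blank spots averaged 203.9 and 58.9 units. Since the 2 arrays differ in dye and in background, the rank of a probe is also given as its percentile, the share of the other miRNA probes on the same array that were dimmer. Probes differ in affinity, so percentiles rank probes and not the abundance of their miRNAs. The miR-200 family, which marks epithelia in general, served as a comparison on the same arrays. Of its probes, 3 of 5 were detected in both samples. miR-200c lay at the 99.8 percentile of both arrays, miR-200b at the 96.3 and 97.6, and miR-429 at the 95.5 and 96.5. In contrast, miR-200a (85.5 and 37.5 percentiles) and miR-141 (5.49 and 60.6) were not above the limits and ranked among the undetected probes.

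None of the 76 lineage markers was detected in both samples (0 of 76), against 62 of all 1040 miRNA probes (5.96%). In at least 1 sample 2 of 76 were detected, against 84 of 1040 (8.08%), and in exactly 1 sample the background share was 2.12%. These were miR-133b* in replicate 1, where 1 of 76 members and 7.88% of all probes were detected, and miR-214 in replicate 2, where 1 of 76 members and 6.15% of all probes were detected. Of the 228 spots that carried the members, 5 passed in replicate 1 and 2 in replicate 2. Counted by probe, 3 of 76 members had any passing spot in at least 1 sample, against 94 of 1040 (9.04%). By limma's treat test, which asks whether log2 signal lies more than 2-fold over the blank level, 0 of 76 members passed after Benjamini-Hochberg adjustment over all probes and 0 of 76 fell under 0.05 before adjustment. Over the whole array 36 of 1040 passed it (3.46%) and 45 fell under 0.05 before adjustment. In the miR-200 family 2 of 5 probes passed it, miR-200b and miR-200c, whereas miR-429 did not. A member below the limits was not detectable over the background of these arrays, which does not show that the miRNA was absent.

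The members as a set ranked below the array's midpoint, with a median raw intensity of 217.1 units in replicate 1 and 52.1 in replicate 2, against 222.9 and 53.1 for all 1040 probes. By raw intensity their median percentile was 26.0 in replicate 1 and 40.2 in replicate 2. With neighbouring spots subtracted it was 42.5 and 41.6, and in the authors' deposited table of processed values 34.6 and 35.1. On both arrays at once, 12 of 76 members lay above the 50th percentile of raw intensity, as did 321 of all 1040 probes. With the 95th percentile of blank spots as the limit, 17 of 76 members passed in at least 1 sample, against 375 of 1040 probes (36.1%). In replicate 2 even the typical miRNA probe was dimmer than a blank spot, and 73 of 76 members lay below the blank mean there, as did 894 of 1040 probes. Averaged over both arrays, the median percentile was 18.0 for blood, 26.9 for liver and pancreas, 30.4 for the nephron, 37.0 for stroma and smooth muscle, 42.1 for striated muscle, 43.2 for nervous tissue and 48.6 for endothelium, against 46.8 over all probes. With each spot set against its neighbours on the array, as described further on, these medians became 27.1 for blood, 29.0 for liver and pancreas, 37.2 for the nephron, 33.0 for stroma and smooth muscle, 42.6 for striated muscle, 51.1 for nervous tissue and 51.9 for endothelium, against 47.1 over all probes. The lineages overlapped in both versions. Repeat spots of a member varied by a median coefficient of variation of 5.18% in replicate 1 and 5.28% in replicate 2.

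**Figure D1:**
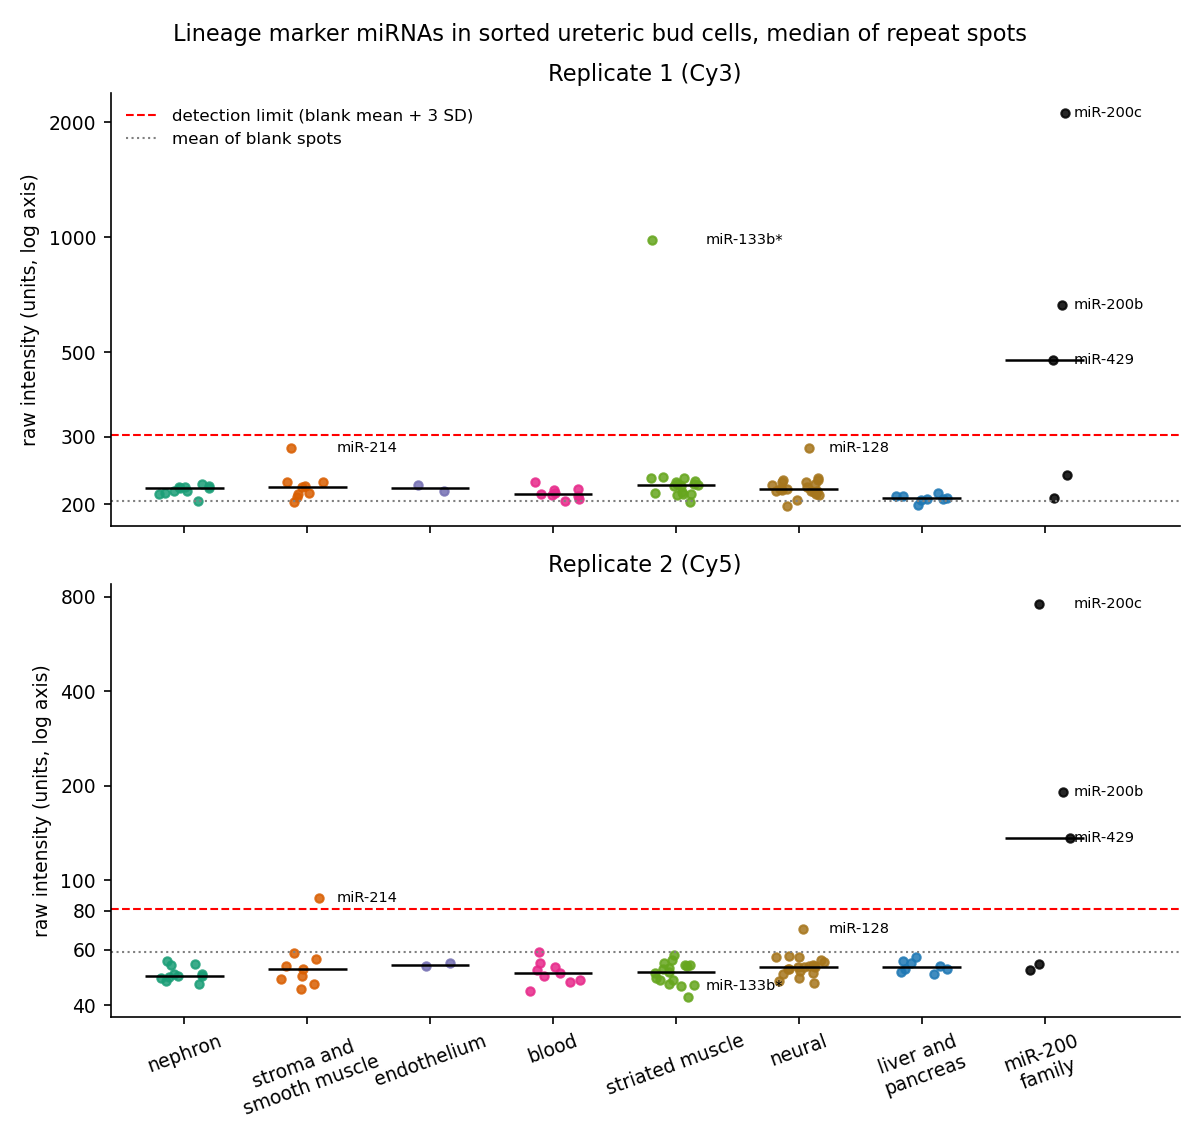
Raw intensity (scanner units, log axis) of each lineage marker in replicates 1 and 2, by lineage, with the 5 miR-200 family probes at the right. Each point is the median of 3 repeat spots, black bars are medians, the dashed line is the detection limit (303.2 and 81.1 units) and the dotted line the blank mean (203.9 and 58.9 units). miR-133b* in replicate 1 and miR-214 in replicate 2 are the lineage markers above the dashed line.

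Nephron miRNAs were not detected in the sorted cells. All 11 probes lay between 203.9 and 225.3 units in replicate 1 and between 46.5 and 55.3 units in replicate 2, with medians of 220.1 and 49.5. On either array 0 of 11 passed the limit, and over all probes only 84 of 1040 (8.08%) passed in at least 1 sample. By raw intensity their median percentile was 36.8 in replicate 1 and 18.7 in replicate 2. It was 39.8 and 26.3 with neighbouring spots subtracted, and 34.6 and 28.4 in the authors' deposited table of processed values. Above the 50th percentile of both arrays by raw intensity lay 0 of 11, against 321 of all 1040 probes. miR-192, which with miR-194 is a leading miRNA of mature proximal tubules, gave 221.6 units in replicate 1 and 53.5 in replicate 2. Its seed partner miR-215 gave 213.1 and 54.2 units. miR-194 gave 214.5 units in replicate 1 and 49.1 in replicate 2, at the 16.8 and 14.9 percentiles. All of these values lay within the band of undetected probes on their array.

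The other pair with a shared seed was not detected either. miR-204, a miRNA of kidney and eye epithelia that lies in an intron of Trpm3, gave 220.9 units in replicate 1 and 49.4 in replicate 2. Its near copy miR-211, an intronic miRNA of Trpm1 known from pigment cells, gave 221.8 and 49.5 units. Their percentiles were 39.8 and 43.8 in replicate 1 and 17.8 and 18.7 in replicate 2. The other arms of these hairpins (1 each for miR-192, miR-204, miR-211 and miR-215 and 2 for miR-194) spanned 203.9 to 225.3 units in replicate 1 and 46.5 to 55.3 in replicate 2.

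Stromal and smooth muscle miRNAs split between miR-214 and the rest. miR-214, a mesenchymal miRNA processed from the Dnm3os transcript together with miR-199a, gave spot values of 267.1, 310.0 and 281.0 units in replicate 1 and 77.5, 88.0 and 90.7 units in replicate 2. In replicate 1 a single spot passed the limit of 303.2 units, and in replicate 2 the upper 2 of the 3 passed that of 81.1. Its percentile was 91.1 in replicate 1 and 94.2 in replicate 2, or rank 93 and rank 61 of 1040. The log2 signal over blank was 0.81 ± 0.16 (SD, n = 2), below the 2-fold bound of the treat test. A single bright blank spot at 917 units raises the replicate 1 limit from the 243.5 units that the other blank spots give, and against that lower limit miR-214 passed in both samples (1 of 76 members, against 64 of 1040 probes, 6.15%). In replicate 1 alone the lower limit was passed by 3 of 76 members, miR-133b*, miR-214 and miR-128, against 12.8% of all probes.

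The partners of miR-214 stayed at the level of undetected probes. miR-199a-3p gave 223.8 units in replicate 1 and 53.2 in replicate 2, miR-199a-5p gave 228.1 and 46.8, and miR-199b* gave 222.4 and 45.05. The opposite arm, miR-214*, gave 202.9 and 56.1 units, at the 1.73 and 77.6 percentiles. The probe for miR-761, whose target has the same seed as miR-214, gave 219.2 and 49.0 units, at the level of undetected probes. Among the 62 miRNAs detected in both samples, the longest run of bases shared with miR-214 was 7, with miR-24. Whether another miRNA gave part of the miR-214 signal was not tested.

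The vascular smooth muscle pair of miR-143 and miR-145, which are neighbours in the genome, was not detected. miR-143 gave 214.3 units in replicate 1 and 49.3 in replicate 2, at the 16.3 and 17.2 percentiles. miR-145 was brighter, at 228.4 and 58.4 units and at the 71.0 and 85.1 percentiles, yet its spots (214.8, 247.4 and 228.4 units, and 61.2, 53.9 and 58.4 units) all stayed under the limits. The opposite arms, miR-143* and miR-145*, reached at most 213.1 units in replicate 1 and 51.9 in replicate 2.

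Endothelium was represented by the 2 arms of miR-126, an intronic miRNA of Egfl7. miR-126-3p gave 216.2 units in replicate 1 and 53.1 in replicate 2, and miR-126-5p gave 224.6 and 54.5 units. Their percentiles were 22.6 and 57.8 on the first array and 49.2 and 64.6 on the second.

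Blood miRNAs had a median percentile of 13.9 in replicate 1 and 26.1 in replicate 2, and their 9 probes lay between 203.3 and 228.9 units and between 44.4 and 59.0 units. The red cell miRNA miR-451 gave 218.0 units in replicate 1 and 44.4 in replicate 2, where its percentile was 0.385. Its genomic neighbour miR-144 gave 209.6 and 49.4 units. Of the pan-leukocyte arms, miR-142-3p had 211.02 and 50.5 units and miR-142-5p 205.7 and 47.3. The lymphoid miR-150 had 214.6 and 51.8. The myeloid miR-223 was the brightest of the 9, at 228.9 and 59.0 units and the 73.1 and 86.2 percentiles. Its spots (244.5, 228.9 and 225.3 units, and 59.0, 57.9 and 60.5 units) all stayed under the limits.

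**Figure D2:**
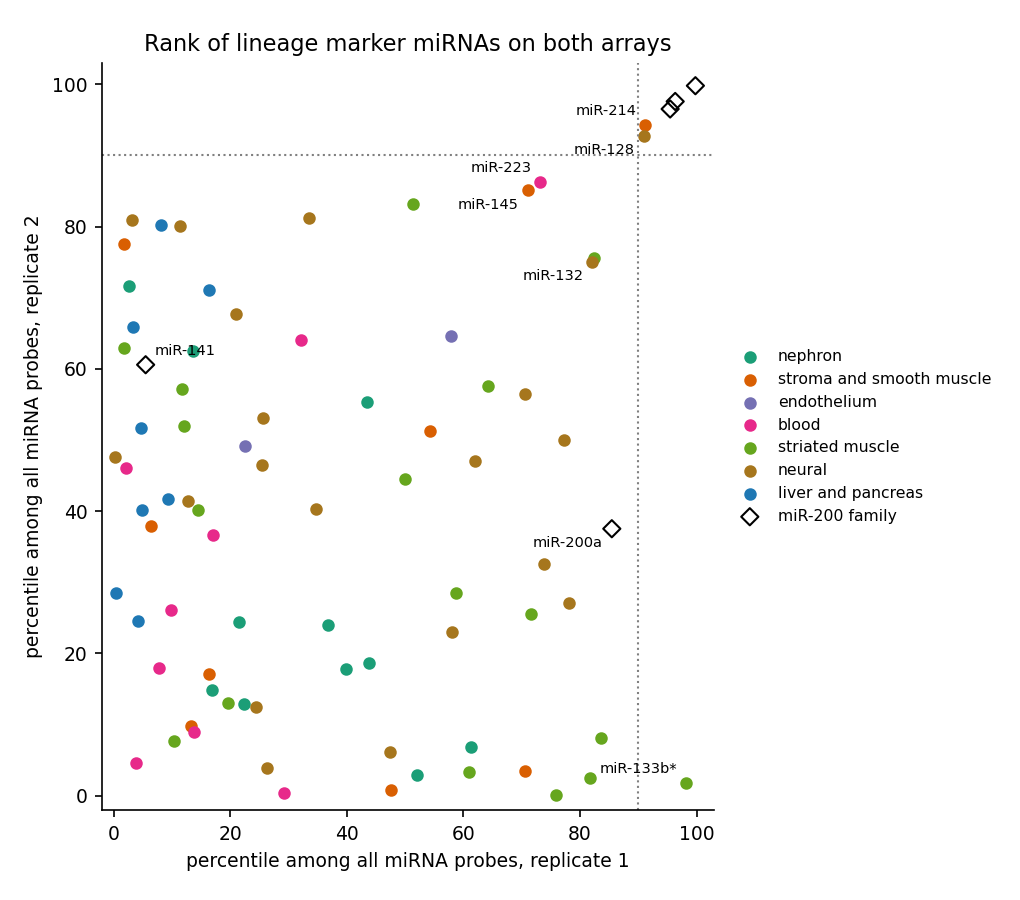
Percentile of each lineage marker among 1040 miRNA probes in replicate 1 (x axis) and replicate 2 (y axis), coloured by lineage, with the miR-200 family as open diamonds and dotted lines at the 90th percentile. miR-214 and miR-128 are the lineage markers beyond both dotted lines, below 3 of the diamonds (miR-429, miR-200b and miR-200c), while miR-133b* stands at the 98.3 percentile in replicate 1 and the 1.83 in replicate 2.

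Striated muscle miRNAs held the largest disagreement between the samples. miR-133b*, the 5′ arm of the miR-133b hairpin, gave 873, 1120.5 and 980.5 units in replicate 1, all far above the limit of 303.2, and 45.9, 45.3 and 47.1 units in replicate 2, all below the blank mean of 58.9. The coefficient of variation between spots was 12.5% in replicate 1 and 2.06% in replicate 2. With 1 sample per dye, the difference in miR-133b* signal between the arrays has no replicate check. The arm that normally accumulates, miR-133b, gave 204.4, 245.7 and 223.1 units in replicate 1 and 57.6, 58.9 and 57.8 units in replicate 2, so it passed in neither sample. The log2 signal of miR-133b* over blank averaged 1.23 ± 2.34 (SD, n = 2), a mean smaller than its spread. No run of more than 7 bases was shared between its target and any of the 62 miRNAs detected in both samples. The 82 probes detected in replicate 1 were not all among these 62, and whether another miRNA gave the signal was not tested.

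The other muscle miRNAs gave no such signal. miR-206, a skeletal muscle miRNA encoded beside miR-133b, gave 233.6 units in replicate 1 and 46.4 in replicate 2. miR-1, which has the same seed as miR-206, gave 213.6 and 52.1 units. miR-133a, whose target is nearly identical to that of miR-133b so that the probes can share signal, gave 234.5 and 55.8 units, at the 82.5 and 75.6 percentiles, with spots from 206.2 to 245.8 units in replicate 1. The cardiac and slow-fibre miRNAs of myosin gene introns, miR-208a-3p, miR-208b and miR-499, gave 222.9, 225.3 and 211.3 units in replicate 1 and 52.6, 46.8 and 48.0 units in replicate 2. Without miR-133b*, the 16 striated muscle probes, which include 2 for a hairpin antisense to a miR-1 gene, lay between 203.0 and 235.5 units in replicate 1 and between 42.4 and 57.8 in replicate 2.

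Neural miRNAs had miR-128 as their brightest member. miR-128, encoded in introns of R3hdm1 and Arpp21 and enriched in brain, gave 246.3, 280.7 and 291.2 units in replicate 1 and 65.1, 70.1 and 70.9 units in replicate 2. All 6 spots stayed under the limits of 303.2 and 81.1 units, while the percentile was 91.0 in replicate 1 and 92.7 in replicate 2. All 3 spots in replicate 1 exceeded the 243.5 units that the limit becomes without the brightest blank spot. The log2 signal over blank was 0.61 ± 0.12 (SD, n = 2), and miR-128 did not pass the treat test. Its star arm miR-128-1* had 215.7 and 54.8 units, and miR-128-2* had 217.2 and 47.0. The miR-128 target shares 8 bases with that of miR-27b, a broadly expressed miRNA whose own probe gave 303.1 and 77.8 units and fell just short of both limits. Whether miR-27b adds to the miR-128 signal was not tested.

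The activity-regulated miR-132 gave 204.8, 250.1 and 234.0 units in replicate 1 and 50.1, 57.1 and 55.7 units in replicate 2, at the 82.1 and 75.0 percentiles. miR-212-3p, from the same locus and with the same seed, gave 224.6 and 50.1 units, at the 58.0 and 23.0 percentiles. Both stayed below the limits. The neuronal miR-124 gave 219.2 units in replicate 1 and 57.1 in replicate 2, and miR-9, a miRNA of neural progenitors, gave 231.6 and 50.7. miR-129-5p gave 217.02 and 52.8 units and miR-138 gave 211.97 and 56.7. For the oligodendrocyte miRNA miR-219-5p the values were 216.03, 219.6 and 304.0 units in replicate 1 and 52.1, 51.9 and 56.8 units in replicate 2. The spot at 304.0 units passed the limit alone, and the intensity within it had an SD of 227 units, against 10.8 and 11.6 units in the other 2 spots. Without miR-128, the 19 neural probes lay between 197.3 and 234.0 units in replicate 1 and between 47.0 and 57.1 in replicate 2.

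**Figure D3:**
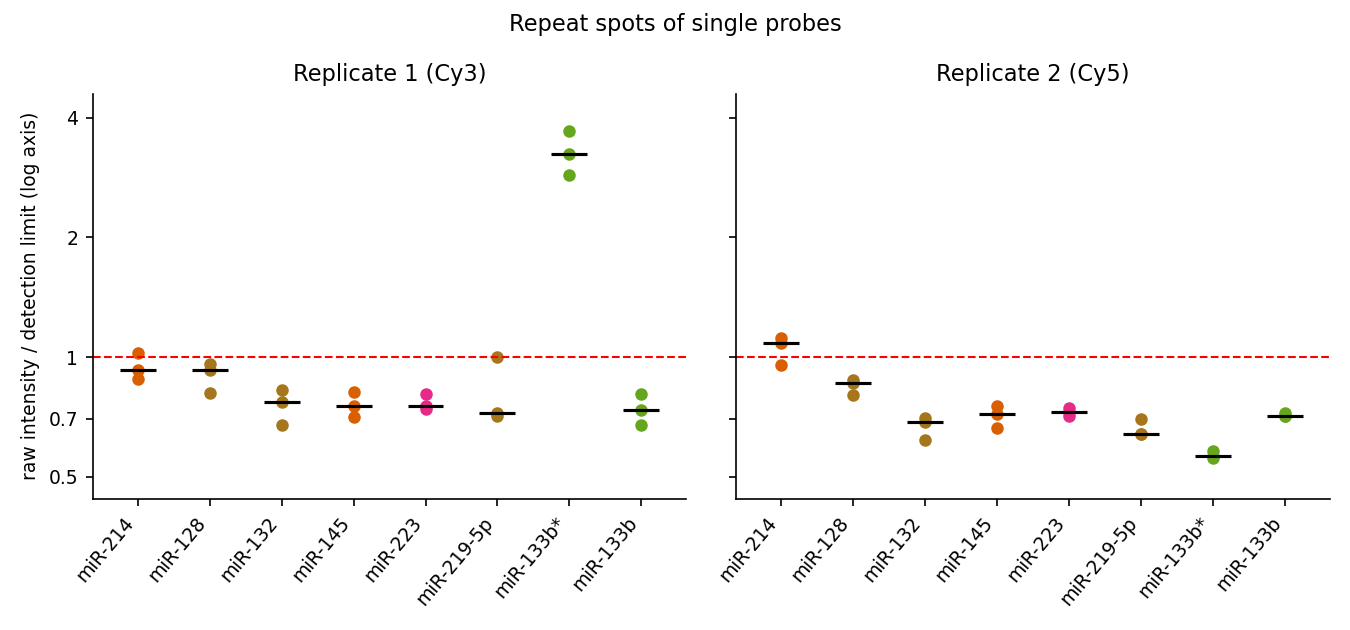
The 3 repeat spots (points) and their median (bars) of 8 lineage markers, as raw intensity over the detection limit of the array (log axis), in replicates 1 and 2. The spots of miR-133b* lie far above the dashed line at 1 in replicate 1 and below it in replicate 2, those of miR-214 straddle the line in both, and those of miR-128 lie just under it.

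Liver and pancreas miRNAs were the dimmest lineage in replicate 1, with 8 probes between 199.5 and 214.3 units and a median percentile of 4.72. In replicate 2 the same probes lay between 50.3 and 56.7 units with a median percentile of 46.7. The hepatocyte miRNA miR-122 had 214.3 and 55.2 units. Of the pancreatic miRNAs, miR-216a had 210.04 and 56.7 units, miR-216b 206.9 and 53.3, and miR-217 206.2 and 50.3. Background was uneven across both arrays, with column medians of blank spots between 178 and 224.0 units on the first and between 48.6 and 63.2 units on the second. With the median of neighbouring miRNA spots subtracted from each spot, the median percentile of the 8 probes became 22.5 in replicate 1 and 27.8 in replicate 2, so their rank in replicate 1 depended on this subtraction.

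With neighbours subtracted, miR-214 and miR-128 were above a limit set by the miRNA spots in both samples. miR-214 exceeded its neighbours by 77.7 units in replicate 1 and 32.6 in replicate 2, and miR-128 by 44.1 and 15.6 units. Under a limit of 25.4 and 12.4 units, 3 scaled median absolute deviations of all miRNA spots after subtraction, 2 of 76 members were called in both samples, against 82 of 1040 probes (7.88%). The same 2 members were called without any subtraction when the limit was set 3 scaled median absolute deviations above the median miRNA spot, at 263 and 67.6 units, against 77 of 1040 probes (7.4%). miR-133b* exceeded its neighbours by 757 units in replicate 1 and lay below them in replicate 2 (-6.16 units). miR-132 exceeded its neighbours by 7.78 and 3.92 units and miR-145 by 13.9 and 6.65, both under the limits. The nephron probes ranged from -6.56 to 1.56 units relative to their neighbours in replicate 1 and from -4.67 to 2.18 in replicate 2.

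The authors' deposited table of processed values, in which 1 whole number stands for each probe and sample, gave values for miR-214 and miR-128 well above the median member in both samples. Its unit is an intensity on a linear scale with background removed, and the normalization is not given in the sources used here. In that table miR-214 had a value of 52 in replicate 1 and 156 in replicate 2, miR-128 had 87 and 123, and miR-132 had 32 and 34. The median over the 76 members was 8 in replicate 1 and 6 in replicate 2, against 10 and 9 over all 1040 probes. In the authors' deposited table miR-128 lay in the upper 10% of probes in both samples (1 of 76 members, against 88 of 1040 probes, 8.46%), and miR-214 fell just outside it at the 89.0 percentile in replicate 1. By raw intensity 2 of 76 members, miR-214 and miR-128, were in the upper 10% of both arrays, against 85 of 1040 (8.17%).

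Apart from miR-214, miR-128 and miR-133b*, the members had values of at most 37 in replicate 1 and 34 in replicate 2 in the authors' deposited table. miR-192 was listed there at 15 in replicate 1 and 16 in replicate 2, miR-194 at 17 and 5, miR-204 at 14 and 2, miR-126-3p at 15 and 17, and miR-223 at 16 and 22. miR-451 was listed at 8 in replicate 1 and at 0 in replicate 2. miR-133b* was listed at 588 in replicate 1 and at 0 in replicate 2. In the same table miR-200c had 2602 and 3395, miR-200b 671 and 1054, and miR-429 308 and 528.

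**Figure D4:**
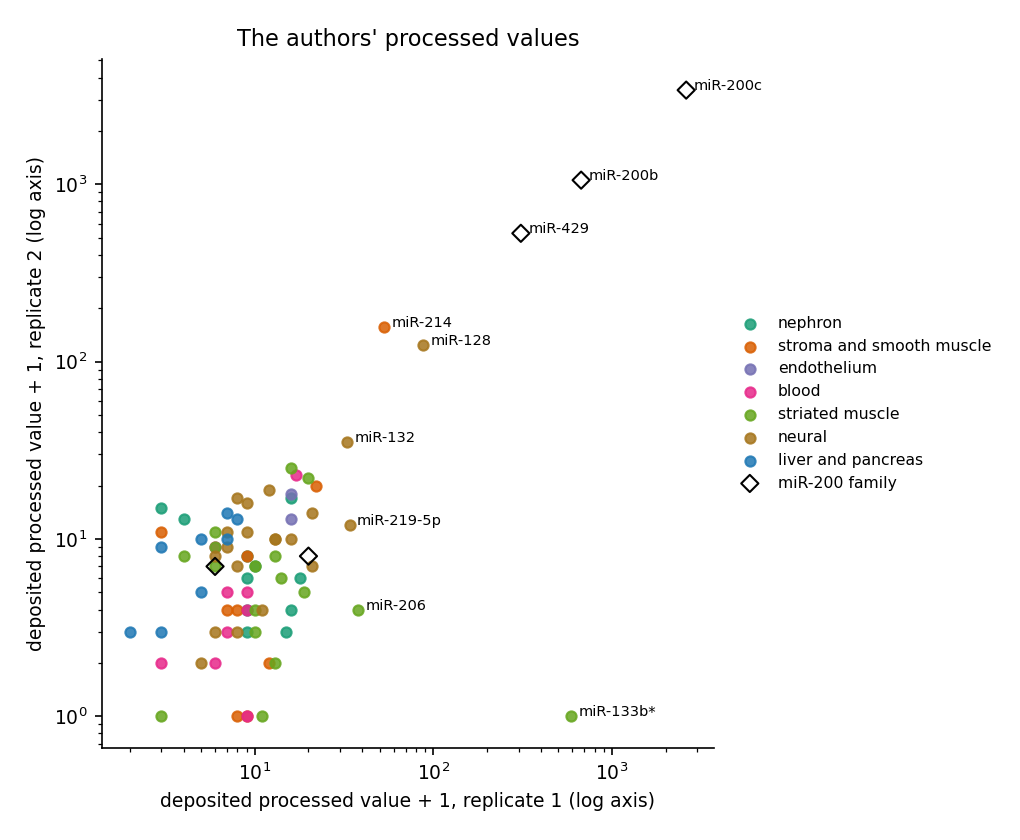
The authors' processed values of the 76 lineage markers (points, coloured by lineage) and of the miR-200 family (open diamonds) in replicate 1 (x axis) and replicate 2 (y axis), with 1 added to each value and both axes logarithmic. miR-214 (52 and 156) and miR-128 (87 and 123) lie between the bulk of the markers and the 3 upper diamonds (miR-429, miR-200b and miR-200c), and miR-133b* lies at 588 in replicate 1 and 0 in replicate 2.

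Of the 76 probes, 74 lay below both limits, so the levels of hairpin arms could not be compared. The 34 arms that normally accumulate had median raw intensities of 219.4 units in replicate 1 and 52.7 in replicate 2, and the other 42 probes had 216.4 and 51.6 units. The median percentiles were 34.1 and 45.5 for the main arms and 23.4 and 35.3 for the others. Each set had 1 probe detected in a single sample, miR-214 among the main arms and miR-133b* among the others. The median GC content of the members' targets was 45.5%, against 47.8% over all probes, and those of miR-214, miR-128 and miR-133b* were 59.1%, 47.6% and 54.5%.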

How the data were processed

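Per the labels' protocols, 4 µg of total RNA per sample was reduced to RNA under 300 nt, tailed, tagged and stained by a service provider. The deposited scanner tables hold the mean intensity of 3968 spots per array, 560 of them blank, with no background subtraction, per the file headers and the blank values. The authors also deposited a table of processed intensity values, with a background method and normalization not given in the sources used here. Precision is limited by having 2 arrays and by the low signal over background.

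Members were matched by name, and lineages by the numbers in the rule. The members and lists were chosen with earlier results of these data known. The treat test (limma 3.58.1, R 4.3.3) used normexp correction (offset 50), log2 values, quantile normalization over miRNA spots, medians of repeat spots and the array's median blank spot, and was fitted on all 1040 probes. Its p-values rest on 2 samples. Named were the main arm of each number, members detected in at least 1 sample and members in the upper 10% of both arrays. Others named (opposite arms, miR-761 and miR-27b) were chosen after their values were seen. Neighbours of a spot are miRNA spots of other probes within 6 rows and 1 column. Percentiles and counts used Python 3.11.15 and pandas 2.3.3. The treat test was tested on simulated data.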

Additional observations from a re-analysis of the deposited data

How the results depend on the processing

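No paired analysis was possible because the design has 1 group. The count of members detected in both samples, 0, stayed 0 with limits of 6 and 10 SD and when all repeat spots had to pass. Over all 1040 probes the main limit gave 62, and these settings gave 45, 33 and 56. The member count became 1, miR-214, with the 95th percentile of blank spots and with a median-based limit. It was also 1 without the brightest blank spot and when any repeat spot sufficed. The stromal count became 1 in these settings. Over all probes they gave, in the same order, 75, 65, 64 and 71. The member count became 2, with stromal and neural counts of 1 each, under 2 alternatives chosen after seeing the data. The first, a limit from the miRNA spots on raw intensities, gave 77 of all 1040 probes. The second, the same kind of limit with neighbouring spots subtracted, gave 82. The move thus came with the limit and needed no subtraction. A single sample gave 1 member with either sample left out (1 to 1). It was miR-214 without replicate 1 (64 of all 1040 probes) and miR-133b* without replicate 2 (82 of 1040). The stromal count then ran from 0 to 1 and the striated muscle count from 0 to 1. The count in at least 1 sample, 2, became 1 with 6 SD, with 10 SD and when all spots had to pass. Over all 1040 probes these gave 64, 50 and 81, against 84 at the main limit. With the 95th percentile the member count became 17 (375 of all 1040 probes). All 17 passed in replicate 1, and miR-214 passed in replicate 2 as well. It became 3, with miR-128 added in replicate 1, without the brightest blank spot and with the median-based limit, and also 3 when any spot sufficed and with both limits from the miRNA spots. The counts in both samples for nephron, endothelium, blood, and liver and pancreas stayed 0 under these settings. In at least 1 sample the blood count became 1, miR-223 in replicate 1, with the 95th percentile, and those of nephron, endothelium, and liver and pancreas stayed 0. The treat test called 0 members under its 5 alternatives. Over the whole array it called only 2 probes in 2 of them, without normalization and with arrays shifted to a common median. Another alternative, a 4-fold bound, is stricter than the main test and could not have added members. Of 35 named members, the mean percentile moved by more than the spread between the samples for 10 in the authors' processed table and for 8 with neighbours subtracted. The causes of these other moves were not tested.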

Other observations

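The rank agreement of the 2 arrays over all 1040 probes differed between the versions of the values. Spearman's rho between the samples was 0.323 for raw intensities, 0.451 with neighbouring spots subtracted and 0.473 in the authors' deposited table. These are relations across probes, which are not independent. miR-214 lay at the 92.0 and 94.1 percentiles with neighbours subtracted and at the 89.0 and 93.2 in the deposited table. miR-128 lay at the 90.2 and 92.7 percentiles with neighbours subtracted and at the 91.0 and 92.6 in the deposited table.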
